A study of Mus musculus with 32 samples.

Results

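Pericytes of the embryonic mouse cortex were selected from 32 droplet single-cell RNA libraries by their own UMI counts (a UMI marks 1 captured RNA molecule). A barcode with at least 1000 UMIs and 500 genes was taken as a pericyte where it held at least 2 UMIs of Rgs5, at least 1 UMI of Pdgfrb, Kcnj8 or Cspg4 together, none of the endothelial gene Cldn5 and at most 1 of the neuronal gene Neurod6. This gave 500 pericytes of 143705 barcodes, or 0.348%. There were 123 at E12.5, 71 at E14.5, 173 at E16.0 and 133 at E17.5. A library gave between 4 and 35 pericytes, with a median of 15. Because these genes chose the cells, their levels are given below as a description, with no test.

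Pericytes are mural cells that sit in the basement membrane of capillaries, wrapped around the endothelial tube. Endothelial cells release PDGF-B, which acts through PDGF receptor beta on pericytes to draw them along the growing vessel, and the vessels of the early brain grow inward from a network on its surface. Pericytes help to set up the blood-brain barrier and vessel tone, and their ATP-sensitive potassium channel, built from the pore subunit Kcnj8 and the sulfonylurea receptor subunit Abcc9, is among their best known marks. Smooth muscle cells are the mural cells of larger vessels and are known for contractile proteins such as smooth muscle actin (Acta2).

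The libraries came from the dorsal telencephalon, the tissue that becomes the cerebral cortex, of C57BL/6J mouse embryos that were wild type (WT) or carried 1 altered copy of the chromatin remodeller gene Chd8 (Chd8+/-, called het here). Each stage had 4 WT and 4 het libraries of 1 embryo each, matched between the genotypes by litter and by sex (M1 and M2 are male, F1 and F2 female), though no label ties a number to a litter. Medial tissue had been cut away, no other agent or allele is named in the labels, and how the Chd8 allele was made is not given in the sources used here. Stage, litter and the dissection of each stage cannot be told apart, since no embryo was sampled at more than 1 stage.

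The libraries held 145082 barcodes and between 14710694 and 66499864 UMIs each. The median UMI count of a pericyte was 10564 at E12.5, 8445 at E14.5, 5362 at E16.0 and 4313 at E17.5, beside 8296.5, 7488, 5510 and 4686 over all kept barcodes. By doublet score, 12 pericytes were marked as likely doublets (2.4%, against 3.81% of all barcodes), and they were kept. None had over 10% mitochondrial UMIs. The barcode sequences of 81 pericytes recurred in another library, as 12168 kept sequences did in all, but no barcode sequence was shared by 2 pericytes. At E17.5, 3 of 8 libraries (WT M1, het M1 and het F1) stood apart in the sums of their other barcodes: they scored between 24.7 and 30.9 on the first principal component, which held 68.0% of the variance, and the other 5 scored between -24.0 and -3.58. For the genes whose calls are read as results, calls lost without them are named below.

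The name was checked with 20 pericyte markers that the selection did not use, such as Vtn, Abcc9, Notch3 and Ndufa4l2. The median pericyte held UMIs of 12 of the 20, and 492 of 500 (98.4%) held at least 3. Among endothelial cells, taken as the 350 barcodes with Cldn5 of at least 2, a UMI of Pecam1, Flt1 or Kdr and Rgs5 of at most 1, the median was 2 markers. Over the other barcodes it was 0, and 1.69% held at least 3. Nearly all cells thus carried several of these markers, but 5 held none of the 20, of which 4 came from E17.5.

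The rule genes were well clear of their limits in most cells. The median pericyte held 18 UMIs of Rgs5, a regulator of G-protein signalling, at E12.5, 33 at E14.5, 31 at E16.0 and 29 at E17.5. For Kcnj8 the medians were 6, 9, 8 and 8 UMIs, and for Pdgfrb 3, 4, 4 and 5. Just inside the limit were 9 pericytes with exactly 2 UMIs of Rgs5, and just outside were 32 barcodes with 1, while 435 pericytes had 10 or more. Another 96 barcodes with at least 2 UMIs of Rgs5 failed only because they held no Pdgfrb, Kcnj8 or Cspg4. They were uneven by stage, with 3 at E12.5, 28 at E14.5, 30 at E16.0 and 35 at E17.5. Of the 96, 5 held 10 or more UMIs of Rgs5. The bearing of this limit on the differences between stages was not tested. A further 160 barcodes failed for Cldn5 alone, 18 at E12.5, 17 at E14.5, 63 at E16.0 and 62 at E17.5. Without the limit on Cldn5, the pericyte share at E17.5 was 0.695% in place of 0.474%, so that the limit also bears on the differences between stages below.

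Promoter sequence is shown for 3 genes as a description. The channel subunits Kcnj8 and Abcc9 lie next to each other on chromosome 6. Kcnj8 is a selection gene, so that its level is not tested, while Abcc9 was higher at E17.5 than at E12.5. Myl9 is a contractile gene whose increase was weak, as given below. The sequences are from RefSeq (build GRCm38.p6) and run 5′ to 3′ on the strand of the gene. Each is taken from the 250 bases before the RefSeq start, with bases of annotated exons left out, so that the printed run of Myl9 ends 44 bases and that of Abcc9 41 bases before that start. Capitals mark the CArG box, the site of serum response factor in smooth muscle genes, with at most 1 mismatch, and TGGGAA, the core of RBPJ sites in Notch target genes, both searched on both strands over 250 bases.
Myl9, chr2:156775214-156775419, plus strand: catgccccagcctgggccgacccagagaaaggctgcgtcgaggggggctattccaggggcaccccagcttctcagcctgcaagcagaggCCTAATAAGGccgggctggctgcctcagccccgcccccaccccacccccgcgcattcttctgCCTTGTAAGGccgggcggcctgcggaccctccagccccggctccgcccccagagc
Kcnj8, chr6:142571615-142571864, minus strand: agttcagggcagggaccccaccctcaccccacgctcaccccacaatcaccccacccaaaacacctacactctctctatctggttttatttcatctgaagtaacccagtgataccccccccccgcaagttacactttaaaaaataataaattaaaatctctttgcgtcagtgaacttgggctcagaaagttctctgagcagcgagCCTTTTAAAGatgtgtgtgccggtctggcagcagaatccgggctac
Abcc9, chr6:142702316-142702524, minus strand: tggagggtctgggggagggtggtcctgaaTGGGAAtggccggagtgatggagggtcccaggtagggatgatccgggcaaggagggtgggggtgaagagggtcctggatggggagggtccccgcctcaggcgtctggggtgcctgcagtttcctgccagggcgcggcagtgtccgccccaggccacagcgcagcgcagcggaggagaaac

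The Myl9 window held an exact CArG box 161 bases before the RefSeq start, exon bases counted, and a copy with 1 mismatch at 99 bases. The Kcnj8 window held a copy with 1 mismatch at 46 bases, and the Abcc9 window held TGGGAA at 221 bases. Of 32851 promoter windows of 250 bases, 1.47% held an exact CArG box, 18.6% a CArG box with at most 1 mismatch and 21.6% TGGGAA, so that the latter matches are common. These letters are a description of the sequence and not of binding. The window of Acta2 is not printed because it lies largely in an annotated exon.

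Pericytes made up a larger share of barcodes at the later stages. The share of kept barcodes lay between 0.173% and 0.463% at E12.5 (median 0.278%), between 0.101% and 0.365% at E14.5 (median 0.226%), between 0.180% and 0.647% at E16.0 (median 0.441%) and between 0.277% and 0.691% at E17.5 (median 0.428%). All stages overlapped. The mean was 0.300% ± 0.0896 at E12.5, 0.230% ± 0.0947 at E14.5, 0.420% ± 0.154 at E16.0 and 0.474% ± 0.152 at E17.5 (SD, n = 8 libraries each). The increase from E12.5 to E17.5 was 0.174 percentage points (exact permutation test, two-sided, p = 0.0154, adjusted over 4 comparisons p = 0.0308). That from E14.5 to E16.0 was 0.191 points (exact permutation p = 0.0107, adjusted p = 0.0308). Both tests took WT and het libraries together. In WT the mean was 0.286% at E12.5 and 0.376% at E17.5, and in het it was 0.313% and 0.572%. The change from E12.5 to E17.5 in het minus that in WT was 0.168 points (permutation test, adjusted over 6 p = 0.397). The difference of E14.5 from E12.5 was -0.0701 points (exact permutation test, adjusted p = 0.200), and that of E17.5 from E16.0 was 0.0535 points (exact permutation test, adjusted p = 0.490), neither beyond the spread between libraries. The call for E17.5 against E12.5 was lost without the 3 libraries that stand apart (0.135 points, adjusted exact permutation p = 0.124). It was also lost when any 1 of 7 libraries was left out, with differences between 0.143 and 0.169 points: WT F1, WT F2, het M2 or het F1 of E12.5, or het M1, het F1 or het F2 of E17.5. With no limit on Cldn5 the increase from E12.5 to E17.5 was 0.352 points (adjusted exact permutation p = 0.00124) and that from E14.5 to E16.0 was 0.296 points (adjusted p = 0.00435, same test). With barcodes of at least 2000 UMIs thinned to that depth, the mean shares were 0.213%, 0.215%, 0.446% and 0.494% in stage order. This left out 475, 12, 607 and 900 kept barcodes with fewer UMIs, in the same order.

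**Figure D1:**
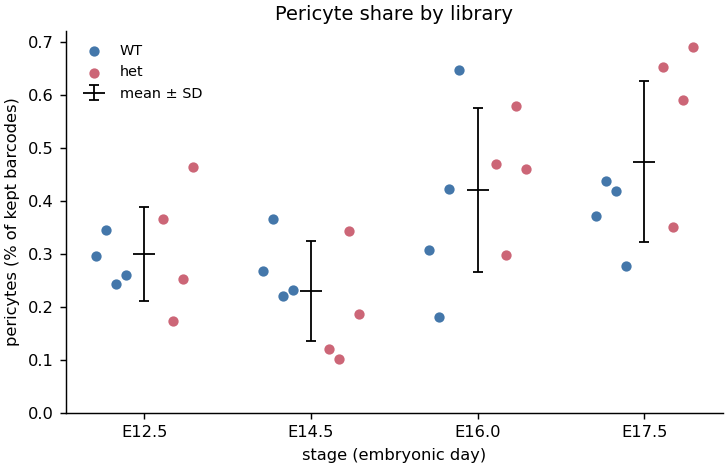
Share of pericytes among kept barcodes (vertical axis, percent) in each library by stage, WT in blue and het in red, with the mean and SD of the 8 libraries of a stage. All stages overlap, and the means rise from 0.300% at E12.5 and 0.230% at E14.5 to 0.420% at E16.0 and 0.474% at E17.5.

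To follow genes across stages, the UMIs of the pericytes of each library were summed and scaled to a total of 1000000 (CPM). Het M2 of E14.5 had 4 pericytes and was left out of the levels and tests by library, so that E14.5 has 7 libraries there and the other stages 8. Counts of cells that held a gene use all 71 pericytes of E14.5. The pericyte sums of the 31 libraries used held between 44307 and 257155 UMIs each. The test was edgeR's quasi-likelihood test of E17.5 against E12.5, averaged over genotypes, with Benjamini-Hochberg adjustment over all genes tested, and a gene was called at an adjusted p of 0.05. Of 3477 genes, 1682 were called, or 48.4%, with 905 higher (26.0%) and 777 lower (22.3%) at E17.5. Counts within a gene list are to be read against these shares. A gene that passed the filter on low counts only through the stage where it was high had to differ, so such genes are named below, are given without a p, and their calls are not read as results. The median log2 fold change of all genes was 0.03.

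The pericyte markers that the selection did not use rose. All 17 of the 20 that were tested were called higher, with a median log2 fold change of 1.78 beside 0.03 over all genes. Of the 17, 15 would pass the filter on low counts without the libraries of E17.5, and Atp13a5 and Colec12 passed only through them. Enpep, Steap4 and Slc6a13 had too few UMIs. The selection genes are given as a description: Rgs5 averaged 1975 CPM at E12.5, 4120 at E14.5, 5917 at E16.0 and 6595 at E17.5, Kcnj8 averaged 572, 1115, 1777 and 1727 CPM, and Pdgfrb averaged 266, 460, 713 and 1004 CPM. The selection used raw UMI counts, and the median pericyte had 10564 UMIs at E12.5 but 4313 at E17.5. Its limit of 2 Rgs5 UMIs was thus a lower relative level at E12.5. At E12.5, 89 of 123 pericytes held at least 10 Rgs5 UMIs, and at E17.5, 121 of 133 did. Markers that go with the selection genes are not independent of this, and the part of the selection in the stage changes was not tested.

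Higd1b, a mitochondrial protein of the hypoxia-inducible domain family (chromosome 11, bases 102835849 to 102838040, plus strand, GRCm38), was the most changed gene. Its level was between 0 and 11.7 CPM at E12.5 (median 1.95), between 541 and 1128 at E14.5 (median 667), between 1196 and 2195 at E16.0 (median 1495) and between 2211 and 4482 at E17.5 (median 2802). No 2 stages overlapped, and 4 of 8 libraries at E12.5 were at 0. The log2 fold change was 9.36 (SE 0.30, edgeR adjusted p = 1.72e-24). At E12.5 the level rested on 6 Higd1b UMIs, and the ratio of the pooled levels of E17.5 and E12.5 was 659, with a 95% interval for counting error from 302 to 1797. By cells, Higd1b was seen in 6 of 123 pericytes at E12.5, 56 of 71 at E14.5, 162 of 173 at E16.0 and 126 of 133 at E17.5. With cells of at least 2000 UMIs thinned to that depth, and cells with fewer left out, these shares were 1.63%, 54.9%, 80.2% and 93.9%. The background was low: Higd1b was seen in 0.770% of the other barcodes at E17.5 (median depth 4687 UMIs, against 4313 in pericytes), and in 4 of 107 endothelial cells.

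Atp13a5, a P5-type ATPase that marks brain pericytes, was first seen at E14.5. It had no UMI at E12.5, lay between 0 and 22.6 CPM at E14.5 (median 0), between 0 and 27.9 at E16.0 (median 16.3) and between 15.4 and 246 at E17.5 (median 139). Every library of E17.5 had it and none of E12.5 did. Set against a floor of 3 UMIs over the pooled stage, its level at E17.5 was at least 59.2-fold higher, taking the E17.5 level as measured, and the 95% interval of the ratio for counting error began at 47.2. It was seen in 51 of 133 pericytes at E17.5, beside 0.230% of the other barcodes.

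Vtn encodes vitronectin, an adhesion protein of blood and matrix. It lay between 496 and 1055 CPM at E12.5 (median 857), between 1029 and 3069 at E14.5 (median 1350), between 1463 and 2903 at E16.0 (median 1778) and between 1214 and 4108 at E17.5 (median 3108). The lowest library of E17.5 was above the highest of E12.5, and the later stages overlapped. The log2 fold change was 1.78 (SE 0.23, edgeR adjusted p = 8.24e-08). P2ry14, a receptor for UDP-sugars, rose from between 3.91 and 30.05 CPM at E12.5 (median 22.5) to between 141 and 491 at E17.5 (median 203), without overlap and with a log2 fold change of 3.50 (SE 0.35, edgeR adjusted p = 5.45e-10). Among the remaining markers, Art3 changed by 2.33, Itga1, an integrin subunit that binds collagen and laminin, by 2.00, Gjc1, the gap junction protein connexin 45, by 1.82, and Ebf1, a transcription factor, by 0.94 (log2). Gjc1 reached its level early: it averaged 179 CPM at E12.5, 640 at E14.5, 742 at E16.0 and 610 at E17.5.

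**Figure D2:**
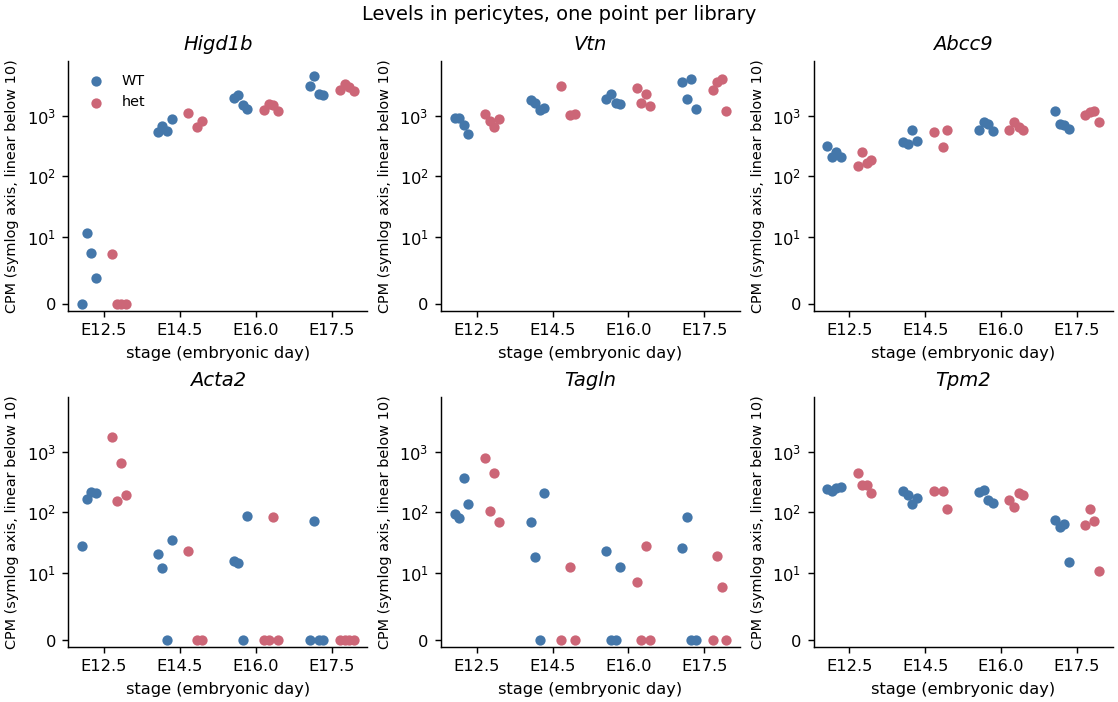
CPM in the pericyte sums of each library by stage for 6 genes (vertical axes linear below 10 and logarithmic above), WT in blue and het in red. Higd1b, Vtn and Abcc9 are higher at E17.5 than at E12.5 in every library, while Acta2, Tagln and Tpm2 are lower in nearly all libraries of E17.5.

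Several genes for vasoactive signals rose. Of 18 listed genes 8 were tested, and all 8 were called higher, with a median log2 fold change of 2.04. Among the 10 with too few UMIs to test, some had lower levels: the adrenergic receptor Adra2a went from 38 to 3 UMIs over the pooled stages (ratio of pooled levels 0.151, 95% interval for counting error 0.0298 to 0.475) and the cation channel Trpc6 from 37 to 5 UMIs (0.258, 0.0792 to 0.658). The tested genes belong to the potassium channel and to the paths by which endothelin, adenosine and nitric oxide act on vessel tone. Abcc9, whose channel partner Kcnj8 served the selection, lay between 149 and 322 CPM at E12.5 (median 210), between 301 and 581 at E14.5 (median 381), between 556 and 788 at E16.0 (median 619) and between 599 and 1216 at E17.5 (median 914). E12.5 and E17.5 did not overlap, and the log2 fold change was 2.07 (SE 0.17, edgeR adjusted p = 6.33e-12). Its span also holds 5330439B14Rik on the opposite strand. Pde5a, which breaks down cyclic GMP, rose from between 9.10 and 60.0 CPM at E12.5 (median 23.1) to between 61.4 and 253 at E17.5 (median 147), just without overlap and with a log2 fold change of 2.60 (SE 0.27, edgeR adjusted p = 1.25e-09). Gucy1a1 and Gucy1b1, the subunits of the nitric oxide receptor guanylate cyclase, changed by 2.36 and 0.69 (log2). The endothelin receptor Ednra changed by 2.01, the adenosine receptor Adora2a by 2.25 and the G-protein regulator Rgs4 by 1.83.

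Contractile genes of smooth muscle took an uneven course. Of 15 listed genes 9 were tested; 5 were called lower (Acta2, Tagln, Tpm1, Tpm2 and Crip1), 2 higher (Myl9 and Mylk) and 2 neither (Smtn and Des), with a median log2 fold change of -1.45. Of the 5, 3 would pass the filter on low counts without E12.5, and Acta2 and Tagln passed only through it. Acta2 lay between 27.3 and 1753 CPM at E12.5 (median 203), between 0 and 34.6 at E14.5 (median 12.1), between 0 and 86.5 at E16.0 (median 7.22) and between 0 and 70.9 at E17.5 (median 0). At E17.5, 7 of 8 libraries were at 0, and WT M2, the 1 that was not, lay above the lowest library of E12.5. The log2 fold change was -6.37 (SE 0.99). By cells, 39 of 123 pericytes held Acta2 at E12.5 and 2 of 133 at E17.5, and after thinning the shares were 18.7% and 1.53%. Of the other barcodes 0.275% and 0.180% held Acta2 (median depths 8293 and 4687 UMIs). A single cell held 130 of the 481 Acta2 UMIs of E12.5, or 27.0%. Without het M1, the highest library of E12.5, the log2 fold change was -5.81, and without WT M2 of E17.5 it was -8.40.

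Tagln, which encodes the actin-binding protein transgelin, lay between 68.2 and 802 CPM at E12.5 (median 122), between 0 and 208 at E14.5 (median 12.5), between 0 and 27.9 at E16.0 (median 4.28) and between 0 and 85.1 at E17.5 (median 3.95). Only WT M2 of E17.5 overlapped the range of E12.5. The log2 fold change was -4.27 (SE 0.73). The Tagln span overlaps Pcsk7 on the opposite strand. At E12.5, 26 pericytes held both Acta2 and Tagln, 13 held Acta2 alone, 21 Tagln alone and 63 neither. Of the 39 cells with Acta2 at E12.5, 29 also held Abcc9, and 66 cells held Abcc9 without Acta2. Tpm2, a tropomyosin, lay between 205 and 438 CPM at E12.5 (median 257), between 112 and 229 at E14.5 (median 194), between 120 and 231 at E16.0 (median 177) and between 10.8 and 113 at E17.5 (median 63.5), and E17.5 did not overlap E12.5 (log2 fold change -2.22, SE 0.24, edgeR adjusted p = 2.04e-09). Mylk, the kinase of the myosin light chain, averaged 151 ± 59.9 CPM at E12.5 and 321 ± 105 at E17.5 (log2 fold change 1.11). The higher call of Myl9, a myosin light chain, was weak (0.47, edgeR adjusted p = 0.0440). It was lost in 24 of 31 fits that left out 1 library, with changes between 0.33 and 0.62 over the 31, and without the limit on Cldn5 its sign turned (-0.16, adjusted p = 0.616). It was also lost with at least 10 cells per library (0.39, adjusted p = 0.0980) and with no filter on low counts (0.29, adjusted p = 0.247). Myh11, the smooth muscle myosin, had 2 UMIs at E12.5 and none at E14.5 or E17.5, too few to read a change.

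Transcription factors of mural cells rose in 9 of the 11 tested of 17 listed, with a median log2 fold change of 0.85. Zic1, a zinc finger factor, lay between 107 and 237 CPM at E12.5 (median 139), between 262 and 479 at E14.5 (median 351), between 525 and 737 at E16.0 (median 648) and between 430 and 1078 at E17.5 (median 676). E12.5 did not overlap any later stage (log2 fold change 2.06, SE 0.17, edgeR adjusted p = 1.02e-11). Epas1, the hypoxia-inducible factor HIF-2 alpha, rose from between 59.1 and 135 CPM at E12.5 (median 77.1) to between 193 and 403 at E17.5 (median 285), also without overlap (1.83, SE 0.19, edgeR adjusted p = 1.25e-09). Nr2f2, the nuclear receptor COUP-TFII, changed by 1.42, the forkhead factors Foxq1, Foxc1 and Foxf2 by 1.19, 1.06 and 0.61, and Mef2c by 0.71 (log2), of which Foxf2 lost its call when any 1 of 6 libraries was left out (WT F2 and het F1 of E12.5, het F1 and het F2 of E14.5, WT M2 and het M2 of E17.5; lowest change 0.37) and with no filter on low counts (0.44, edgeR adjusted p = 0.157). Mef2c lost its call with no limit on Cldn5 (0.33, edgeR adjusted p = 0.0658). Tbx18, which marks many mural cells, was not called, with 152 ± 60.2 CPM at E12.5 and 157 ± 60.8 at E17.5, nor was Heyl with 277 ± 37.1 and 266 ± 84.7 CPM.

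Basement membrane genes rose in 9 of the 12 tested of 17 listed, with a median log2 fold change of 1.27. Col4a1 and Col4a2, the main chains of collagen IV, changed by 1.37 and 1.58, the heparan sulfate proteoglycan Agrn by 1.72, the linker protein Nid1 by 1.65, and the laminin chains Lama4 and Lamb1 by 1.45 and 1.35 (log2). Col4a1 averaged 722 ± 180 CPM at E12.5, 798 ± 251 at E14.5, 1322 ± 89.3 at E16.0 and 1888 ± 687 at E17.5. Lamc3, Fn1 and Col18a1 were not called. In fibrillar matrix, 10 of 18 listed genes were tested, 4 of which were called lower (Col1a1, Col3a1, Timp3 and Serpinh1) and 3 higher (Postn, Mgp and Fstl1). Col1a1 passed the filter on low counts only through E12.5 and Postn only through E17.5, and the call of Postn was lost with no limit on Cldn5 and without the 3 libraries that stand apart. Col1a1, a chain of collagen I, lay between 35.5 and 285 CPM at E12.5 (median 46.2) and between 0 and 21.7 at E17.5 (median 8.50), without overlap (log2 fold change -3.14, SE 0.62). Col3a1, the chain of collagen III, changed by -2.27. Mgp, the matrix Gla protein, lay between 0 and 73.9 CPM at E12.5 (median 28.5) and between 0 and 1333 at E17.5 (median 28.7), with a log2 fold change of 2.00 (edgeR adjusted p = 0.0322). A single cell of WT M2 at E17.5 held 93 of the 118 Mgp UMIs of the stage, or 78.8%, and without that library the change was -0.35 (adjusted p = 0.724), so that the call rests on 1 cell. It was also lost with no limit on Cldn5 (0.79, adjusted p = 0.335), without doublet-scored barcodes (1.93, adjusted p = 0.0506) and, with changes between 1.81 and 1.89, without any 1 of WT M1, WT F2, het M2 and het F1 of E12.5 and het M2 and het F2 of E17.5.

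**Figure D3:**
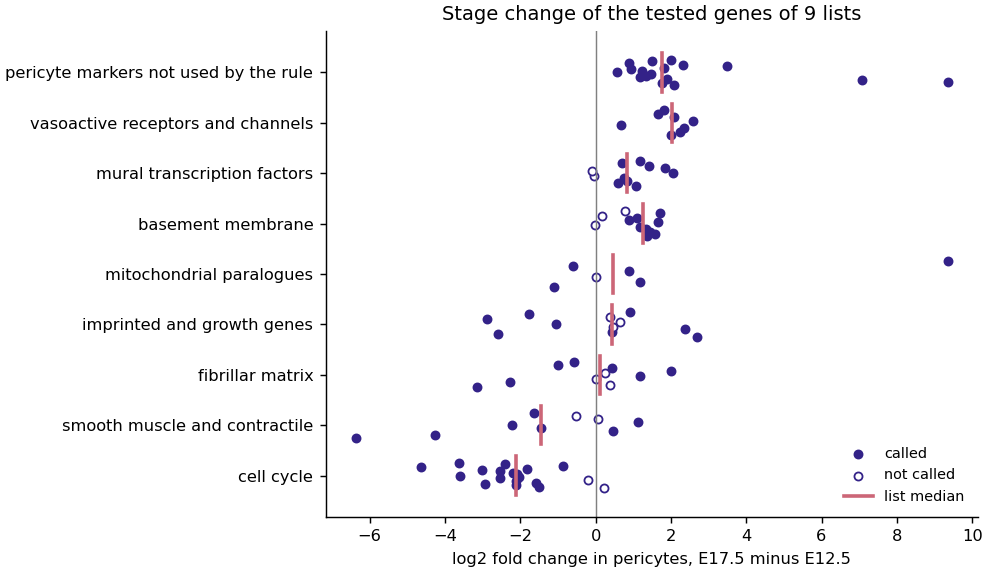
Log2 fold change of E17.5 against E12.5 in pericytes (horizontal axis) for the tested genes of 9 gene lists, filled where called at an adjusted p of 0.05, with the list median as a red line. All tested pericyte markers and vasoactive genes lie above 0, most cell cycle genes lie below it, and the contractile and imprinted lists lie on both sides.

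Most signalling genes for the contact with endothelium had too few UMIs to test. Of 7 PDGF and sphingosine genes beside Pdgfrb, S1pr3, a sphingosine 1-phosphate receptor, was the 1 tested and rose by 1.99 (log2). Of 8 angiopoietin and VEGF genes, Nrp1, a co-receptor, was the 1 tested and rose by 1.01, though with no limit on Cldn5 its change was 0.38 and not called (edgeR adjusted p = 0.258). Of 11 Notch genes 7 were tested, of which Notch3, Hey2 and Notch1 rose. The ligand Jag1, which passed the filter on low counts only through E12.5, was called lower (-0.75), a call that is not read here. It was lost with DESeq2, with no limit on Cldn5, without doublet-scored barcodes, without the 3 libraries that stand apart and in 5 of 16 fits that left out 1 library. Notch3, the Notch receptor of mural cells, lay between 59.5 and 136 CPM at E12.5 (median 75.8), between 87.8 and 316 at E14.5 (median 140), between 148 and 317 at E16.0 (median 212) and between 169 and 661 at E17.5 (median 299). E12.5 and E17.5 did not overlap (log2 fold change 1.89, SE 0.23, edgeR adjusted p = 2.95e-08). Hey2, a transcriptional repressor and target of Notch, changed by 1.53 and Notch1 by 1.12. The Notch targets Hes1, Heyl and Nrarp, of which Heyl is also known from mural cells, were not called (0.06, -0.09 and 0.11). In TGF-beta and BMP signalling, 4 of 17 genes were tested, of which the co-receptor Eng rose (0.85) and Id3, a target of BMP signals, fell (-0.92). Without the 3 libraries that stand apart Nrp1 (0.83) and Id3 (-0.68) missed the threshold (edgeR adjusted p = 0.0851 and 0.0602). Eng was lost without WT F1 of E17.5 (0.55) and with no filter on low counts (0.68, edgeR adjusted p = 0.0676).

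Of 3 pairs of mitochondrial paralogues, 2 had members that changed in opposite directions. The list held pairs of genes, of which 1 member is known from pericytes and the other is widespread. Higd1b rose, as above, and Higd1a fell, from 189 ± 41.2 to 125 ± 26.3 CPM (-0.60, edgeR adjusted p = 0.0111). Ndufa4l2, a paralogue of the respiratory chain subunit Ndufa4 that is known as a target of hypoxia-inducible factor, lay between 598 and 1029 CPM at E12.5 (median 802), between 1166 and 1823 at E14.5 (median 1575), between 1428 and 2131 at E16.0 (median 1754) and between 1199 and 3177 at E17.5 (median 1639). E12.5 overlapped no later stage (1.18, SE 0.16, edgeR adjusted p = 1.75e-07). Ndufa4 fell from 668 ± 194 to 330 ± 177 CPM (-1.09, edgeR adjusted p = 2.72e-05). Cox4i2, an isoform of cytochrome c oxidase subunit 4, lay between 214 and 506 CPM at E12.5 (median 331), between 188 and 587 at E14.5 (median 399), between 232 and 520 at E16.0 (median 353) and between 465 and 982 at E17.5 (median 609). E17.5 overlapped E12.5 (0.89, SE 0.19, edgeR adjusted p = 0.000281). Cox4i1, the widespread isoform, was not called, with 1716 ± 154 and 1746 ± 218 CPM (0.01). Without the limit on Cldn5 the change of Higd1a was 0.0094 (adjusted p = 0.970) and that of Cox4i2 missed the threshold (0.35, adjusted p = 0.0786). Without the 3 libraries that stand apart that of Higd1a was -0.59 (adjusted p = 0.0570).

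**Figure D4:**
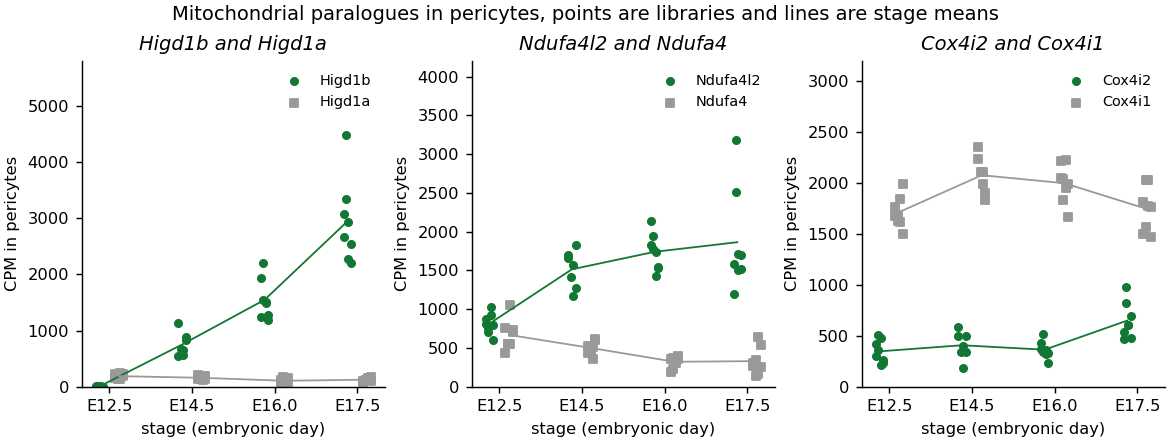
CPM in the pericyte sums of each library (vertical axes) by stage for 3 pairs of mitochondrial paralogues, with green circles for the pericyte member, grey squares for the widespread member and lines through the stage means. Higd1b climbs from 3.81 to 2943 CPM, and Ndufa4l2 and Ndufa4 move apart.

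Imprinted and growth genes moved both ways. Of 14 listed genes 11 were tested, with 4 higher (Igf2, Meg3, Igfbp7 and Dlk1) and 4 lower (Mest, H19, Igfbp2 and Cdkn1c). Igf2, a paternally expressed growth factor, and H19, its maternally expressed noncoding neighbour on chromosome 7, moved in opposite directions. Igf2 lay between 167 and 474 CPM at E12.5 (median 270), between 248 and 618 at E14.5 (median 381), between 390 and 936 at E16.0 (median 636) and between 568.2 and 4990 at E17.5 (median 1131). E12.5 and E17.5 did not overlap (log2 fold change 2.701, SE 0.34, edgeR adjusted p = 6.7e-08). Its span also holds Gm49394 and Mir483 on the same strand and Igf2os on the opposite one. H19 lay between 321 and 680 CPM at E12.5 (median 505), between 120 and 335 at E14.5 (median 263), between 68.5 and 281 at E16.0 (median 156) and between 12.6 and 303 at E17.5 (median 56.7), again without overlap (-2.58, SE 0.31, edgeR adjusted p = 3.17e-08).

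The level of Igf2 split the libraries of E17.5. The 3 libraries that stand apart had 3406 (WT M1), 4637 (het M1) and 4990 CPM (het F1), and the other 5 lay between 568.2 and 1530 CPM, with no overlap. These libraries were set apart by their other barcodes, where Igf2 averaged 4.22 CPM in the 3 and 6.41 in the 5. Without them the log2 fold change of Igf2 was 1.41 (edgeR adjusted p = 2.2e-05). Over the genes followed by library, only Gjc1 and Gucy1a1 also did not overlap: Gjc1 averaged 772 CPM in the 3 and 512 in the 5 libraries, and Gucy1a1 845 and 455. The other barcodes of the same libraries moved the same way, with 43.1 and 28.5 CPM of Gjc1 and 71.5 and 27.6 CPM of Gucy1a1, and their part in these values was not tested. All other genes followed by library overlapped, among them Higd1b (2667 to 3078 CPM in the 3 and 2211 to 4482 in the 5). A split of 3 against 5 libraries can leave a few of many genes without overlap by chance. The gaps of these genes, Igf2 included, were not tested and are a description only.

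Mest, another paternally expressed gene, fell from between 738 and 2289 CPM at E12.5 (median 1522), through 319 to 757 at E14.5 (median 487) and 326 to 737 at E16.0 (median 533), to between 48.2 and 353 at E17.5 (median 166), and E17.5 did not overlap E12.5 (-2.87, SE 0.26, edgeR adjusted p = 5.03e-11). Meg3, a maternally expressed noncoding RNA, lay between 523 and 2763 CPM at E12.5 (median 1407), between 1934 and 5868 at E14.5 (median 3865), between 4108 and 6711 at E16.0 (median 5064) and between 5021 and 11030 at E17.5 (median 7875), without overlap of the first and last stage (2.36, SE 0.21, edgeR adjusted p = 6.45e-11). The spans of both Mest and Meg3 hold microRNA genes. Igfbp7, a secreted binding protein, changed by 0.91, Igfbp2, another binding protein, by -1.77, and the cell cycle inhibitor Cdkn1c by -1.05 (log2). The change of Dlk1, a paternally expressed membrane protein, was 0.44 (edgeR adjusted p = 0.0287), and it was -0.16 without the limit on Cldn5 (adjusted p = 0.578). Dlk1 also lost its call without the 3 libraries that stand apart (0.42, adjusted p = 0.0988), with no filter on low counts (0.27, adjusted p = 0.291), without doublet-scored barcodes (0.38, adjusted p = 0.0608) and with the library of 4 pericytes kept (0.44, adjusted p = 0.0532). It was lost in 8 of 31 fits that left out 1 library, with changes between 0.34 and 0.53 over the 31.

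Cell cycle genes fell between the first and the last stage. All 19 listed genes were tested and 17 were called lower, with a median log2 fold change of -2.12; Mki67 and Cenpf were not called. Of the 17, 14 would pass the filter on low counts without E12.5, and Mcm2, Mcm4 and Mcm5 passed only through it. The summed level of the list lay between 1946 and 3712 CPM at E12.5 (median 3049), between 1731 and 5154 at E14.5 (median 3350), between 992 and 3912 at E16.0 (median 1984) and between 227 and 1246 at E17.5 (median 558). The first 3 stages overlapped, and every library of E17.5 was below every library of E12.5. Top2a, a topoisomerase of dividing cells, lay between 44.4 and 262 CPM at E12.5 (median 189) and between 0 and 141 at E17.5 (median 33.7), which overlapped (-1.50, SE 0.40, edgeR adjusted p = 0.00238). Without the 3 libraries that stand apart it missed the threshold (-1.01, adjusted p = 0.0688). It was seen in 68 of 123 pericytes at E12.5, 27 of 71 at E14.5, 40 of 173 at E16.0 and 10 of 133 at E17.5, and after thinning in 30.1%, 19.7%, 15.1% and 5.34%. Thinned shares were 23.4% at E12.5 and 8.74% at E17.5 in endothelial cells, and 27.5% and 7.01% in the other barcodes. At E14.5, 21 of the 27 pericytes with Top2a also held Higd1b, and at E16.0 37 of 40 did. Higd1b was about as common without Top2a: 35 such cells held it and 9 did not at E14.5, and 125 and 8 at E16.0. The replication genes Mcm5, Mcm3 and Rrm2 changed by -4.63, -3.01 and -3.62 (log2). Mki67, a marker of proliferation, averaged 61.0 ± 19.6 CPM at E12.5 and 66.7 ± 48.2 at E17.5.

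Several secreted and transport genes of pericytes rose. Of 16 transport and barrier genes 6 were tested and 4 rose: Ptn, a secreted growth factor, by 3.22, the amino acid transporter Slc38a11 by 4.37, the folate carrier Slc19a1 by 2.16 and the lipoprotein receptor Lrp1 by 1.73 (log2). The amino acid transporter Slc7a5 (52.1 ± 16.8 CPM at E12.5 and 34.5 ± 19.1 at E17.5) and the apolipoprotein Apoe (163 ± 113 and 123 ± 35.6 CPM) were not called. Ptn averaged 245 ± 90.1 CPM at E12.5, 749 ± 275 at E14.5, 1552 ± 174 at E16.0 and 2303 ± 907 at E17.5. Of 11 chemokine and immune genes 6 were tested and Il34, Ifitm1 and Ifitm3 rose, while B2m and Ifitm2 were not called. Cxcl12 was also called higher, a call that is not read because of the filter, as given below. The chemokine Ccl2, which had too few UMIs to test, went from 38 to 3 UMIs over the pooled stages (ratio of pooled levels 0.151, 95% interval for counting error 0.0298 to 0.475). Il34, a ligand of the receptor CSF1R that microglia carry, lay between 7.51 and 44.4 CPM at E12.5 (median 15.2) and between 61.4 and 269 at E17.5 (median 210), without overlap (3.34, SE 0.35, edgeR adjusted p = 1.82e-09). Cxcl12, a chemokine, lay between 0 and 22.5 CPM at E12.5 (median 11.8) and between 0 and 402 at E17.5 (median 40.2), where 2 libraries were at 0 and 1 cell held 31 of 95 UMIs (log2 fold change 3.31, SE 0.69). It had no UMI at E14.5 and passed the filter on low counts only through E17.5, and with no limit on Cldn5 the change was 1.14. Sod3, the extracellular superoxide dismutase, averaged 1.87 CPM at E12.5, on 2 UMIs, 32.8 at E14.5, 53.9 at E16.0 and 202 ± 52.5 at E17.5, and the ratio of the pooled levels of E17.5 and E12.5 was 134 (95% interval for counting error 36.3 to 1115).

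Among the 10 genes with the largest increase, 7 are known from neurons: Reln, Snhg11, Stmn2, Ly6h, Pcp4, Rtn1 and Gap43. The other 3 were Higd1b, Sod3 and Tbx3os1. Of the 10, 9 passed the filter on low counts only through E17.5, all but Higd1b, so that their calls were set by the filter and only their levels are described. Reln, a glycoprotein that Cajal-Retzius cells secrete, had no UMI in pericytes at E12.5, 52 UMIs in 1 cell at E14.5, 31 UMIs in 1 cell at E16.0, and 212 UMIs in 8 of 133 cells (6.02%) at E17.5, where 3.18% of the other barcodes held it. Its median at E17.5 was 13.1 CPM and its highest library 868 CPM, and 3 libraries were at 0. The summed level of 9 excitatory neuron markers lay between 209 and 397 CPM at E12.5 (median 329) and between 445 and 2363 at E17.5 (median 819). In the other barcodes of E17.5 it lay between 3519 and 5165 CPM. The sum includes Stmn2, which is also 1 of the 7 genes and went from 8.69 to 416 CPM in the pooled stages. Its increase is therefore no separate evidence beside theirs. None of the 9 was at 0 at E17.5. Of the list, Stmn2, Tubb3 and Mef2c were tested and called higher. With Rgs5 of at least 10 UMIs, Stmn2, Reln and Gap43 had too few UMIs to be tested and Tubb3 was not called (0.84, adjusted p = 0.0783), while Higd1b (10.18), Abcc9 (2.34) and Igf2 (3.15) kept their calls. The part of neuronal RNA in these increases was not tested.

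Markers of other cell types were summed in the same way. The 10 radial glia markers summed to between 1441 and 2166 CPM at E12.5 (median 1996) and between 868 and 6296 at E17.5 (median 1140); of these Slc1a3, Aldoc and Fabp7 were called higher and Vim lower, of which Slc1a3 and Aldoc would not pass the filter on low counts without E17.5. With Rgs5 of at least 3 UMIs the change of Fabp7 turned from 1.57 to -0.67 (edgeR adjusted p = 0.0308), and it was 0.24 without WT F2 and 0.57 without het F2 of E17.5 (not called). It was not called either with at least 10 cells per library (0.16, adjusted p = 0.805) or with no limit on Cldn5 (0.42, adjusted p = 0.461). The 12 endothelial markers summed to between 226 and 354 CPM at E12.5 (median 263) and between 429 and 610 at E17.5 (median 520), with Esam and Emcn called higher and Cdh5 at 0 at E17.5; with no limit on Cldn5 Emcn was not called (0.34, edgeR adjusted p = 0.257). The 11 fibroblast markers summed to between 719 and 1780 CPM at E12.5 (median 1000) and between 338 and 699 at E17.5 (median 569), with 6 of them at 0 at E17.5, Dcn, Lum and Pdgfra included. Of 306 barcodes taken as fibroblasts (Col1a1 of at least 2 UMIs), 294 came from E12.5, the stage at which Col1a1, Acta2 and Tagln were highest in pericytes; the part of fibroblast RNA in these levels was not tested. Microglia markers reached 528 CPM in 1 library of E12.5 and at most 17.9 CPM at E17.5. The red cell markers reached 87711 CPM in a library of E14.5, where 1 pericyte of WT M2 held 9458 UMIs of the embryonic globin Hbb-y. Hbb-y had no UMI at E17.5, where its level was at least 66.1-fold lower than at E12.5 against a floor of 3 UMIs over the pooled stage (upper limit of the ratio for counting error 0.0187); it passed the filter on low counts only through E12.5, and DESeq2 gave it no adjusted p.

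Endothelial cells, the other cells of the vessel wall, served to show which stage changes differed between the partners. The test was edgeR's quasi-likelihood test of the difference between the 2 stage changes (pericytes minus endothelial cells), with the library as a block, over libraries with at least 5 cells of both kinds (7 at E12.5 and 8 at E17.5). Of 4120 genes 505 were called (12.3%), of which the change in pericytes minus that in endothelial cells was positive for 250 (6.07%) and negative for 255 (6.19%). The count of negative differences moved by over 1.5 times without any 1 of 11 libraries, to between 135 and 169: WT M1, WT F1, WT F2, het M1 and het F2 of E12.5, WT F1 of E16.0, and WT M1, WT M2, WT F1, het M1 and het F1 of E17.5. Endothelial cells had a median of 16062 UMIs at E12.5 and 5609 at E17.5, against 10564 and 4313 in pericytes.

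Igf2 and the noncoding RNAs Meg3 and Rian had stage changes of opposite sign in the 2 cell types. In endothelial cells Igf2 lay between 208 and 352 CPM at E12.5 (median 251) and between 0 and 26.7 at E17.5 (median 0), where 6 of 8 libraries were at 0, while it rose in pericytes. The difference of the log2 changes was 8.21 (SE 0.36, edgeR adjusted p = 2.8e-23), and it was 7.32 without the 3 libraries that stand apart (adjusted p = 9.24e-16). Its size is uncertain because the endothelial sums of E17.5 were at or near 0. Over fits that left out 1 library it lay between 7.53 and 9.38. Meg3 averaged 180 ± 118 CPM in endothelial cells at E12.5 and 14.7 ± 15.1 at E17.5 (difference 5.63, SE 0.41, edgeR adjusted p = 1.04e-14). Rian averaged 145 CPM in pericytes at E12.5 and 404 at E17.5, and 15.8 and 0 CPM in endothelial cells. The neuronal genes Stmn2 and Gap43 were also among the 5 genes with the most positive difference. Stmn2 averaged 8.19 ± 7.08 CPM in pericytes at E12.5 and 362 ± 423 at E17.5, and 150 ± 125 and 52.5 ± 38.9 CPM in endothelial cells (difference 6.54, SE 0.63, edgeR adjusted p = 4.45e-11). Gap43 averaged 12.1 ± 8.39 and 401.5 ± 544 CPM in pericytes and 13.4 ± 12.1 and 11.6 ± 9.91 CPM in endothelial cells, and it passed the filter on low counts only through the pericytes of E17.5, so that its call is not read. All 3 excitatory neuron markers tested (Stmn2, Tubb3 and Mef2c) had a positive called difference. Mef2c is also counted among the mural transcription factors, and its median of 228 CPM at E12.5 made up most of the summed excitatory neuron level of that stage. The part of neuronal RNA in these differences was not tested. H19 (0.92, adjusted p = 0.369) and Mest (-0.47, adjusted p = 0.342) did not pass, and in endothelial cells H19 averaged 1038 ± 239 CPM at E12.5 and 132 ± 201 at E17.5.

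Genes with a negative difference included some that increased mainly in endothelial cells. Bsg, the chaperone of monocarboxylate transporters, lay between 296 and 440 CPM in pericytes at E12.5 (median 355) and between 138 and 624 at E17.5 (median 430), and between 366 and 652 (median 416) and between 7142 and 12821 CPM (median 8907) in endothelial cells. The difference of the log2 changes was -4.35 (SE 0.21, edgeR adjusted p = 1.18e-21). The cationic amino acid transporter Slc7a1 averaged 41.2 and 40.6 CPM in pericytes and 42.9 and 990 CPM in endothelial cells (difference -4.66). Pglyrp1, a peptidoglycan-binding protein, averaged 20.9 and 1336 CPM in endothelial cells and 1.86 and 7.72 in pericytes, where it rested on 3 and 5 UMIs. Ly6e lay between 10.5 and 26.8 CPM in endothelial cells at E12.5 and between 227 and 791 at E17.5, and in pericytes it had 13 and 7 UMIs (difference -4.79). Fam13a averaged 10.4 and 260 CPM in endothelial cells and had 2 UMIs in pericytes at E12.5 and 0 at E17.5. Ptgis, prostacyclin synthase, averaged 71.5 and 64.5 CPM in endothelial cells and 21.5 and 0 in pericytes. Pglyrp1, Fam13a and Ptgis had a called negative difference, but its size is not given because the pericyte sums were at or near 0. With no limit on Cldn5 these 5 differences lost their calls, with Slc7a1 at -0.91 and Ly6e at -1.28, while Bsg kept its call at -1.19. The calls of Fam13a and Pglyrp1 were also lost without WT F2 of E12.5, and that of Pglyrp1 without het F2 of E12.5 and with Rgs5 of at least 10 UMIs. Fam13a lost its call without the 3 libraries that stand apart, without doublet-scored barcodes and with no filter on low counts.

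By list, the difference was positive and called for 4 of the 17 pericyte markers tested (Abcc9, Notch3, Gjc1 and Itga1), 4 of 13 mural transcription factors and 5 of 14 basement membrane genes, and negative for 1 other of the last. The calls of Abcc9 and Notch3 rest on endothelial sums near 0: in endothelial cells Abcc9 had 8 UMIs at E12.5 and 1 at E17.5, and Notch3 had 8 and 0, so that the size of the difference is not given. Abcc9 lost its call with DESeq2, with at least 10 cells per library, with no filter on low counts, with no limit on Cldn5, without the 3 libraries that stand apart and in 10 of 25 fits that left out 1 library. Notch3 lost it with DESeq2, without doublet-scored barcodes, with no limit on Cldn5, without the 3 libraries and without any 1 of het F2 of E12.5 and het F1 and het M2 of E17.5. Nr2f2 (2.21, SE 0.35, edgeR adjusted p = 9.88e-06), Gjc1 (1.86), Itga1 (1.04), Mylk (2.30) and Col4a1 (0.81) had positive differences, of which Itga1 (0.74, adjusted p = 0.187) and Col4a1 (0.54, adjusted p = 0.115) missed the threshold with no limit on Cldn5. Epas1 rose in pericytes but its change did not differ from that in endothelial cells beyond the error (0.27, adjusted p = 0.559), and there it averaged 157 ± 70.9 CPM at E12.5 and 362 ± 49.3 at E17.5. Of 17 cell cycle genes 0 had a positive and 3 a negative called difference (Pcna, Mcm3 and Mcm5), and Top2a did not pass (-0.41, adjusted p = 0.651). Mcm5 lost its call in 22 of 25 fits that left out 1 library, with DESeq2 (-2.08, adjusted p = 0.0786) and without the 3 libraries that stand apart (-1.55, edgeR adjusted p = 0.364), and also with Rgs5 of at least 10 UMIs, with no filter on low counts, with no limit on Cldn5 and without doublet-scored barcodes. No value is given for Higd1b, Atp13a5, P2ry14 and Acta2 since the endothelial sums were at or near 0 and the fit gave no usable error, and none for Zic1, whose called positive difference rests on 21 UMIs at E12.5 and 1 at E17.5 in endothelial cells.

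**Figure D5:**
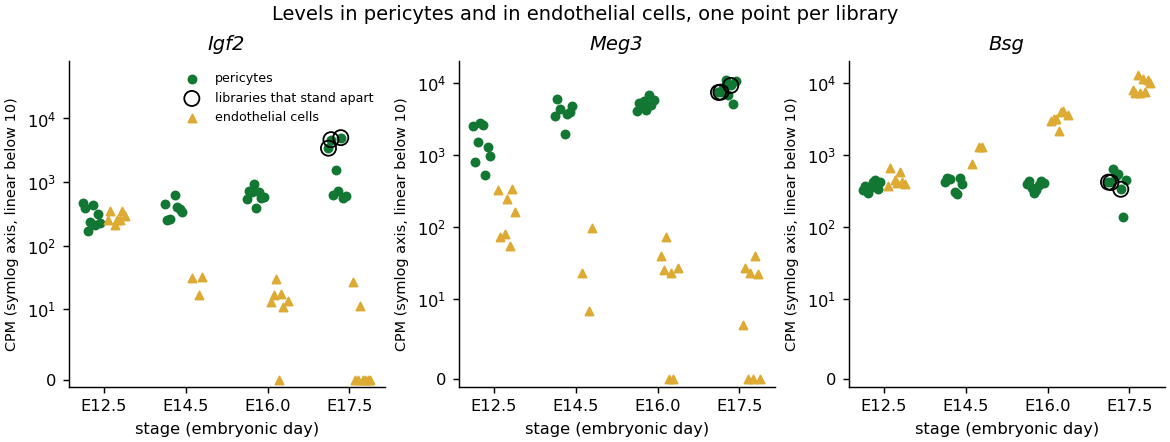
CPM of Igf2, Meg3 and Bsg (vertical axes linear below 10 and logarithmic above) in the pericyte sums (green circles) and the endothelial sums (yellow triangles) of each library by stage, with rings around the pericyte values of the 3 libraries that stand apart at E17.5. Igf2 overlaps at E12.5 and is higher in pericytes later, Meg3 is higher in pericytes throughout, and Bsg reaches 7142 to 12821 CPM in endothelial cells at E17.5 against 138 to 624 in pericytes.

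The study's own comparison was that of Chd8 het and WT embryos. Chd8, the altered gene, had few UMIs in pericytes, between 0 and 13 per library, and was not tested there. Its level in M1, M2, F1 and F2 at E12.5 was 49.1, 11.7, 52.6 and 23.4 CPM in WT and 14.9, 44.4, 35.7 and 36.4 CPM in het pericytes. At E14.5 it was 41.6, 36.4, 19.9 and 11.5 CPM in WT and 0, 75.3 and 18.7 CPM in het M1, F1 and F2. At E16.0 it was 38.6, 43.3, 83.1 and 18.5 CPM in WT and 51.4, 37.1, 37.2 and 41.0 CPM in het, and at E17.5 it was 63.1, 56.7, 24.1 and 123 CPM in WT and 89.5, 0, 39.5 and 54.2 CPM in het. The genotypes overlapped at every stage, and a reduction of Chd8 was not detectable at this depth. In the other barcodes of E12.5, Chd8 averaged 41.3 ± 1.73 CPM for WT and 30.2 ± 6.49 for het libraries (n = 4 each). The means of E17.5 were 64.9 ± 13.1 for WT and 58.7 ± 14.9 for het. The 3′ reads need not lie in the altered part of the gene, so these values check the labels only that far.

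No difference in pericyte share between the genotypes passed a test. In WT it averaged 0.286% ± 0.0453 at E12.5, 0.271% ± 0.0656 at E14.5, 0.389% ± 0.198 at E16.0 and 0.376% ± 0.0717 at E17.5 (SD, n = 4). In het it averaged 0.313% ± 0.127, 0.188% ± 0.109, 0.452% ± 0.116 and 0.572% ± 0.153. The widest gap was at E17.5, where WT M1, M2, F1 and F2 had 0.372%, 0.438%, 0.419% and 0.277% and het had 0.653%, 0.351%, 0.591% and 0.691%. There 3 of 4 het libraries lay above every WT library and het M2 lay within the WT range (exact permutation p = 0.114, adjusted over 4 stages p = 0.457). With 4 against 4 libraries the smallest p this test can give is 0.0286, so that 1 stage alone could not pass after adjustment over the 4. Averaged over stages the het share was 0.0506 points higher, and it was higher in 10 of 16 comparisons of same-numbered embryos (permutation test within stages, p = 0.262). Het M1 and het F1 of E17.5 are among the libraries that stand apart, as is WT M1, and without the 3 the difference over stages was 0.0375 points (permutation p = 0.482). The effect of genotype at E17.5 minus that at E14.5 was 0.278 points, the largest of 6 such differences between stages (permutation p = 0.0245, adjusted over 6 p = 0.147).

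No gene was called between het and WT pericytes, averaged over stages. By edgeR's quasi-likelihood test 0 of 3477 genes (0.00%) had an adjusted p under 0.05, and 166 had an unadjusted p under 0.05. DESeq2 also called 0, with 139 under 0.05 unadjusted, and the fit with same-numbered embryos as a block called 0, with 181. The genes with the lowest p were all lower in het and did not pass. Homer3, a scaffold protein, averaged 73.9 ± 30.7 CPM in WT and 34.9 ± 20.1 in het (n = 16 and 15, log2 fold change -1.13, SE 0.25, edgeR adjusted p = 0.270). Frmd8 averaged 70.9 ± 29.2 and 39.2 ± 15.3 CPM (-0.93, edgeR adjusted p = 0.316), and Rab5if, Nifk and Gng10 followed with -0.46, -0.78 and -0.50 (edgeR adjusted p between 0.602 and 0.748). In simulated counts of the same size, 77.1% of genes changed 2-fold between the genotypes were called (74 of 96) and 100% of those changed 4-fold (89 of 89), beside 12 unchanged genes. The simulation used a fixed spread that was not estimated from these data. It also changed only genes above a minimum UMI count. It therefore does not show what share of such changes the real fit would call, and Homer3 at -1.13 was not called.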

How the data were processed

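UMI counts per gene and barcode were deposited by the authors, not normalized, for each of 32 libraries. Per the submitters' processing notes the tools included STAR 2.7.9a, STARsolo and Cell Ranger and the build was mm10. Per the labels' protocols the libraries were 10x Genomics 3′ libraries of v2 chemistry. Whether counting used strand is not given in the sources used here, so reads of overlapping genes cannot be told apart. Gene positions and overlaps are from the GENCODE annotation of GRCm38 and promoter sequences from RefSeq.

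Pericytes were selected as described, without filtering on mitochondrial UMIs or doublets; doublets were scored within each library (0.5 simulated doublets per cell, 30 components, 30 neighbours, an assumed rate of 0.8% per 1000 barcodes) and left out in an alternative. Free RNA was not modelled. UMIs were summed per library with at least 5 pericytes and tested with edgeR 4.0.16 (TMM, filterByExpr, 8 groups of stage and genotype, quasi-likelihood test, Benjamini-Hochberg) in R 4.3.3, with DESeq2 1.42.0 as an alternative. Levels are CPM of the sums. Alternatives changed the filter, tool, cells per library, Rgs5 minimum, doublets, depth, sex term, block and libraries left out. Shares were tested by permutation over libraries with scipy 1.17.1. In simulated counts, 35.4% of genes changed 2-fold and 97.8% of genes changed 4-fold between E12.5 and E17.5 were called, and in the comparison with endothelial cells 4.30% and 48.4%. All simulations used a fixed spread not estimated from these data and changed only genes above a minimum UMI count, so the real shares may differ.

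Per the labels' protocols WT and het embryos were matched by litter and sex, but no label says which number marks which litter, so pairing by number is assumed and used only in an alternative. Named genes are the 10 called genes with the largest change each way (mean log2 CPM of at least 6), the called members of each list (up to 4) and its members with the highest level; for genotype the 5 with the lowest p; against endothelial cells the 5 each way. Itga1, Myh11, Tbx18, Igfbp2, Cdkn1c, Mki67 and Bsg were added after their values were seen. The cells, genes and lists were chosen with earlier results of these data known. Intervals and floors cover counting error only.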

Additional observations from a re-analysis of the deposited data

Results flagged for a closer look

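Of 104 sets of 7 or 8 pericyte libraries of a stage checked for a library far from the rest (Dixon's criterion at 95%), 17 had one, or 16.3%. The criterion flags about 1 in 20 sets of normally distributed values. Levels from low counts, some with most libraries at 0, need not be so distributed, so that nothing is concluded from the higher rate. Each flagged library was the highest of its stage. At E12.5 het M1 was highest for Acta2 with 1753 CPM, above 642 CPM in the next library, and for Tpm2 with 438 CPM, and het M2 for Il34 with 44.4 CPM. At E14.5 het M1, which had 5 pericytes, was highest for Notch3 (316 CPM), Vtn (3069 CPM) and Il34 (271 CPM), WT F2 for Tagln (208 CPM), het F1 for Reln (652 CPM, all in 1 cell) and WT M2 for Hbb-y (57335 CPM, nearly all in 1 cell). At E16.0 WT M2 was highest for Pde5a (231 CPM) and het M1 for Reln (265 CPM, in 1 cell). At E17.5 WT M2 was highest for Acta2 (70.9 CPM, all other libraries at 0), Tagln (85.1 CPM) and Mgp (1333 CPM), het M2 for P2ry14 (491 CPM) and Notch3 (661 CPM), and het F2 for H19 (303 CPM).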

How the results depend on the processing

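The stage calls rested on 1682 genes; the count was 1310 without the 3 libraries that stand apart, 1574 with DESeq2 (of which 1562 were shared), and moved to 2711 with no filter on low counts and to 2665 with no limit on Cldn5. Leaving out 1 library at a time gave between 1508 and 1874 stage calls, 0 to 0 genotype calls, and 369 to 530 calls against endothelial cells. With no limit on Cldn5, 3 genes were called lower in het and 108 differed from endothelial cells in place of 505; without the 3 libraries that stand apart 232 did. Of the calls against endothelial cells the higher and lower counts were 250 and 255 in the reported fit, 192 and 201 with DESeq2, 284 and 181 with at least 10 cells per library, 312 and 204 with Rgs5 of at least 3 UMIs, 282 and 176 without doublet-scored barcodes, 347 and 220 with Rgs5 of at least 10, 276 and 159 with no filter on low counts, 85 and 23 with no limit on Cldn5, and 148 and 84 without the 3 libraries; over fits that left out 1 library they were 212 to 309 and 135 to 278. The share at E17.5 minus E12.5 was 0.135 points without the 3 libraries (adjusted exact permutation p = 0.124). With 1 library left out it lay between 0.143 and 0.202, and the other differences between -0.0895 and -0.0467 (E14.5 minus E12.5), 0.159 and 0.225 (E16.0 minus E14.5), 0.0192 and 0.0859 (E17.5 minus E16.0) and 0.0332 and 0.0721 (het minus WT). With same-numbered embryos as a replicate block the het share was 0.0506 points higher (permutation p = 0.297) and 0 genes were called, so that the block changed no call; deviations of same-numbered embryos correlated between -0.117 and 0.347 over genes in 15 pairs, 6 of them over 0.1, and 15 of 30 libraries correlated best with their own number. Signs turned for Fabp7 with Rgs5 of at least 3 (-0.67) or 10 UMIs (-0.54), for Myl9 (-0.16), Higd1a (0.0094) and Dlk1 (-0.16) with no limit on Cldn5, and for Mgp without WT M2 of E17.5 (-0.35; between -0.35 and 2.49 over fits that left out 1 library); the cause was not tested. Alternatives on Rgs5 of at least 10, Cldn5, Neurod6 and the 3 libraries were chosen after seeing the data. Depth limits low genes most in the smallest library used (het M1 of E14.5), whose pericytes summed to 44307 UMIs.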
